A study of Mus musculus with 5 samples.

Results

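Gzmk CD4 T cells of the heart-draining lymph nodes were taken as the cells with at least 1 unique molecular identifier (UMI, 1 captured mRNA molecule) of Cd4 and at least 1 of Gzmk, and with none of Cd8a, Cd8b1, Foxp3 or Cd79a. The cells were thus chosen by their measured UMI counts, and the rule gave 298 cells of the 10192 lymph node cells kept, out of 34095 barcodes in the whole series. Kept cells had at least 200 genes, at most 10% mitochondrial UMIs, and a leading hashtag (an antibody that carries a DNA tag and marks the sample of origin) with at least 10 UMIs and at least 3 times the UMIs of the next. The cells were set against 1380 Gzmk-negative CD4 cells, which had a Cd4 UMI and none of Gzmk, Cd8a, Cd8b1, Foxp3 or Cd79a, and against 941 Gzmk CD8 cells, which had a UMI of Gzmk and of Cd8a or Cd8b1 and none of Cd4, Foxp3 or Cd79a.

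T cells came from mediastinal lymph nodes of C57BL/6 mice aged 2, 6, 12 and 18 months, with no treatment other than age, and were sorted as CD44-high, a surface state of T cells that have met antigen. They were pooled in 1 droplet library with 8 hashtags, and a T cell receptor library was made from the same pool. No source used here gives the age of a hashtag or the number of mice behind it, so the hashtags were used as unnamed samples, never as ages, and p-values measure only the spread between these hashtag samples. The sorted cells were mixed at unequal ratios, so the cell number of a hashtag is not a measure of the tissue.

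CD4 T cells are best known as helpers that act through cytokines and CD40 ligand, and follicular helper cells, a specialised kind, assist B cells. A smaller kind carries granzymes, the proteases that killer lymphocytes deliver with perforin, and is marked by the T-box factor Eomes, which also drives memory and effector programmes of CD8 T cells. Granzyme K, encoded by Gzmk (ENSMUSG00000042385, GRCm38 chromosome 13, 113171608 to 113225908, minus strand), is a trypsin-like granzyme found in memory T cells, and T cells that express it have been described in tissues of aged mice.

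The rule used only 6 genes, and the remaining transcripts were open to test. The classes were nevertheless cut on UMIs of the same cells, so a gene that goes with Gzmk from cell to cell differs between them by that choice. Gzmk UMIs per cell had a median of 4.5 and a maximum of 49. Just inside the limit lay 67 cells with 1 Gzmk UMI and just outside it the 1380 cells with 0, while 101 cells had 2 to 5 and 130 had 6 or more.

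The Gzmk background was measured in B cells. Among 461 B cells (a UMI of Cd79a and of Ms4a1 and none of a Cd3 gene), which should lack it, 4 had a Gzmk UMI, a share of 0.868% (0.237 to 2.21, exact 95% binomial interval, as for every share, and covering counting error only), while the median depth was 3591 UMIs in Gzmk CD4 cells and 3981 UMIs in B cells. No B cell had 2 Gzmk UMIs, which allows a share of up to 0.797%. Ccl5 UMIs were common in B cells, at 14.3%, so low levels of this chemokine are background, whereas 2.17% of B cells had a UMI of Nkg7 and 0.651% one of Eomes.

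Markers of T cells were present. All 298 cells had a UMI of a Cd3 gene, against 57 of 1380 Gzmk-negative CD4 cells (4.13%) with none, and a receptor contig was found in 274 of 298 (91.9%, 88.3 to 94.8) against 1155 of 1380 (83.7%, 81.6 to 85.6). Trdc, Tcrg-C1 and Zbtb16, which mark γδ T cells and invariant natural killer T cells, were at 0. The γδ markers Tcrg-C2 and Tcrg-C4 were detected. Together the 4 γδ markers summed to 7.81 CPM in Gzmk CD4 cells of Hashtag7, against 7.05 CPM in its Gzmk-negative CD4 cells. In Hashtags 3, 5, 6 and 8 they were at 0, against 1.66 to 22.8 CPM. None of the 274 receptors joined TRAV11 to TRAJ18, against 10 of 1155. The 4 natural killer cell markers (Ncr1, Klrb1c, Tyrobp and Fcer1g) summed to 9.51, 394, 0, 11.7 and 31.7 CPM in Gzmk CD4 cells of Hashtags 3, 5, 6, 7 and 8, against 201, 52.0, 29.9, 183 and 86.9 CPM in Gzmk-negative CD4 cells. The high value of Hashtag5 came from 55 UMIs in 5 of 26 cells, 33 of them in 1 cell, and its part in the results was tested only by leaving out Hashtag5. Of the 4 Gzmk CD4 markers, Cd4 and Gzmk were set by the rule, Ccl5 was found in 74.2% of the cells and Eomes in 54.4%.

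Some limits of the gate could be measured. Of 1015 cells with Gzmk and a Cd8 chain, 74 (7.29%, 5.77 to 9.07) also carried a Cd4 UMI, and 440 of 1753 Gzmk cells (25.1%, 23.1 to 27.2) had neither Cd4 nor a Cd8 chain. A second Cd4 UMI was seen in 128 of the 298 Gzmk CD4 cells (43.0%, 37.3 to 48.8) and in 665 of 1380 Gzmk-negative CD4 cells (48.2%, 45.5 to 50.9). Cells with Lyz2, a lysozyme of myeloid cells, at 3 or more UMIs numbered 0 among Gzmk CD4 cells and 30 among Gzmk-negative CD4 cells, of which 11 had a receptor. Over the 5 hashtags used below, the summed level of 5 myeloid markers ran between 114 and 296 CPM (a gene's UMIs divided by all UMIs of the sum, scaled to 1e+06) in Gzmk CD4 cells and between 174 and 713 CPM in Gzmk-negative CD4 cells, and that of 6 B cell markers between 217 and 1183 CPM, against 844 to 4485 CPM.

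The cells were unevenly spread over the hashtags. Of the Foxp3-negative CD4 cells, those with Gzmk made up 5 of 204 in Hashtag1 (2.45%, 0.801 to 5.63), 1 of 86 in Hashtag2 (1.16%, 0.0294 to 6.31) and 4 of 146 in Hashtag4 (2.74%, 0.751 to 6.87). The share was 14 of 156 in Hashtag3 (8.97%, 4.99 to 14.6), 26 of 186 in Hashtag5 (13.98%, 9.34 to 19.8), 14 of 192 in Hashtag6 (7.29%, 4.04 to 11.9) and 45 of 338 in Hashtag8 (13.3%, 9.88 to 17.4). In Hashtag7 it was 189 of 370 (51.1%, 45.9 to 56.3), the only hashtag whose interval lay apart from those of the other 7. Of the 31 B cells of Hashtag7 none had a Gzmk UMI, which allows a share of up to 11.2%. The intervals of Hashtags 1, 2 and 4 overlap that of all B cells (0.868%, 0.237 to 2.21), so their Gzmk CD4 cells cannot be told apart from background.

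**Figure D1:**
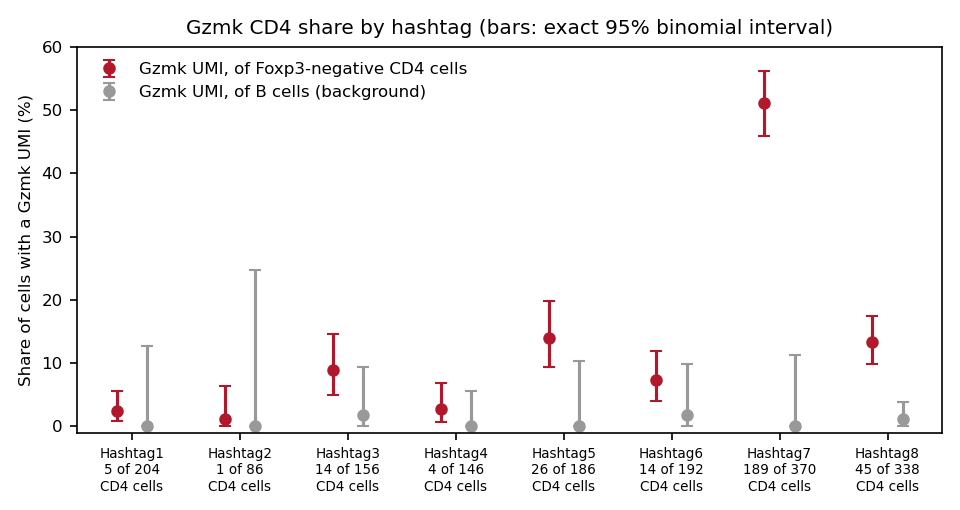
Share of Foxp3-negative CD4 cells with a Gzmk UMI (red, first in each pair) and share of B cells with a Gzmk UMI (grey) in percent, for the 8 hashtags, with exact 95% binomial intervals. Hashtag7 stands at 51.1%, and the other hashtags lie between 1.16% and 13.98%.

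Hashtag7 gave 63.4% of the Gzmk CD4 cells and 48.5% of the Gzmk CD8 cells, but 13.1% of the Gzmk-negative CD4 cells and 19.5% of all kept cells. Counting each clonotype (cells that share a receptor) once left the order of the high hashtags in place. A Gzmk CD4 cell was found in 102 of 234 CD4 clonotypes of Hashtag7 (43.6%, 37.1 to 50.2), 24 of 148 in Hashtag5 (16.2%, 10.7 to 23.2), 30 of 249 in Hashtag8 (12.0%, 8.28 to 16.8) and 14 of 125 in Hashtag3 (11.2%, 6.26 to 18.1). Hashtag6 had 12 of 153 (7.84%, 4.12 to 13.3), and Hashtags 1, 2 and 4 had 4 of 163, 1 of 74 and 4 of 111.

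Gene levels were compared between classes within the 5 hashtags that held at least 10 cells of each class, Hashtags 3, 5, 6, 7 and 8, with UMIs summed per class and hashtag. Values per hashtag are given in that order, as CPM of the class. Of 6147 genes tested with edgeR's quasi-likelihood test, 4.52% passed an adjusted p of 0.05, with 142 higher (2.31%) and 136 lower (2.21%) in Gzmk CD4 cells. One of the 142 was Gzmk itself, which the rule fixed. The sums held 50729 to 767883 UMIs in Gzmk CD4 cells and 482736 to 1069863 UMIs in Gzmk-negative CD4 cells, with the deepest Gzmk CD4 sum in Hashtag7. Without Hashtag7, 28 genes were higher and 32 lower, of which 28 and 28 were among the first calls. The counts were 83 and 109 without Hashtag5 and 93 and 86 without Hashtag6. Cells in clonotypes of 1 cell gave 9 higher and 16 lower genes, so most calls named here were lost with that smaller set. The median log2 ratio of all genes was -0.01.

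Eomes and Ccl5 had the highest ratios apart from Gzmk. Eomes (chromosome 9, 118478212 to 118486132, plus strand) stood at 38.0, 215, 315, 362 and 296 CPM in Gzmk CD4 cells, against 12.4, 0, 3.32, 17.6 and 3.74 CPM in Gzmk-negative CD4 cells. The lowest Gzmk CD4 value, in Hashtag3, was above the highest Gzmk-negative one. The log2 ratio was 5.14 ± 0.43 (SE, edgeR adjusted p = 1.36e-06, higher in 5 of 5 hashtags). It was 5.51 without Hashtag7 (edgeR adjusted p = 0.00019).

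Ccl5 (chromosome 11, 83525778 to 83530518, minus strand), a chemokine that draws T cells and monocytes, stood at 865, 8233, 14075, 12188 and 5766 CPM in Gzmk CD4 cells, against 195, 135, 91.3, 345 and 267 CPM in Gzmk-negative CD4 cells. Hashtag3 was far below the other 4 hashtags but still above every Gzmk-negative sum. The log2 ratio was 5.05 ± 0.48 (edgeR adjusted p = 4.16e-06). After every cell was thinned to 1500 UMIs, a Ccl5 UMI was found in 67.8% of Gzmk CD4 cells (61.8 to 73.4) and in 10.2% of Gzmk-negative CD4 cells (8.40 to 12.1). Cells under 1500 UMIs were left out of such shares: 37 of 298 Gzmk CD4, 327 of 1380 Gzmk-negative CD4 and 204 of 941 Gzmk CD8 cells. Unthinned, the shares were 74.2% and 16.4%, and the last is close to the unthinned 14.3% of B cells (11.2 to 17.9). Thinned and unthinned shares of a class pool all 8 hashtags and count clone-mates singly. Hashtag7 gave 63.4% of all Gzmk CD4 cells and 13.1% of all Gzmk-negative CD4 cells. The part of hashtag in such shares was not tested.

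Genes of the cytotoxic granule rose in part. Nkg7 (chromosome 7, 43437073 to 43438249, plus strand), a granule membrane protein needed for release, stood at 371, 1304, 2898, 1919.6 and 1146 CPM in Gzmk CD4 cells, against 128, 76.1, 64.8, 123 and 97.2 CPM in Gzmk-negative CD4 cells (log2 ratio 3.79 ± 0.34, edgeR adjusted p = 2.62e-06). Prf1, the pore-forming perforin, was low but separate, at 28.5, 43.0, 19.7, 107 and 73.9 CPM, against 14.5, 7.42, 1.66, 5.29 and 2.80 CPM (log2 ratio 3.34 ± 0.46, edgeR adjusted p = 0.000321), and without Hashtag3 its ratio was 3.94. Without Hashtag7, too few Prf1 UMIs were left to test. Ctsw, a cathepsin of killer cells, overlapped between the classes, at 38.0, 229, 177, 232 and 227 CPM against 60.1, 74.2, 36.5, 42.3 and 86.0 CPM, and rose by 1.63 ± 0.28 on the log2 scale (edgeR adjusted p = 0.00216), a call lost without Hashtag7 (1.31, edgeR adjusted p = 0.0724).

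Of 15 granule genes listed, 10 were tested, of which 4 were higher (Nkg7, Prf1, Ctsw and Serpinb6b) and 1 lower (Srgn, the proteoglycan that packs granules), with a median log2 ratio of 0.97. Srgn and Serpinb6b were weak calls, held in 11 of 20 and 12 of 19 processing settings, and both were lost without Hashtag6 and without Hashtag7. Gzma, Gzmb, Gzmc, Gzmm and Fasl had too few UMIs to be tested. After thinning, a Gzma UMI was found in 3.83% of Gzmk CD4 cells (1.85 to 6.93) and 0.190% of Gzmk-negative CD4 cells (0.0230 to 0.684), a Gzmb UMI in 3.45% (1.59 to 6.44) and 0.190% (0.0230 to 0.684), and a Gzmm UMI in 2.30% (0.848 to 4.94) and 0.0950% (0.00240 to 0.528). Gzmk was thus the granzyme seen in these cells, with the others at a few percent, although Gzmk was also the gene that chose them.

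Receptors and other surface molecules of natural killer and memory T cells followed. Crtam (chromosome 9, 40969691 to 41004628, minus strand), an adhesion molecule known to mark cytotoxic CD4 T cells in mice, stood at 28.5, 107, 39.4, 102 and 89.8 CPM in Gzmk CD4 cells, against 4.14, 7.42, 3.32, 3.53 and 4.67 CPM in Gzmk-negative CD4 cells (log2 ratio 4.02 ± 0.36, edgeR adjusted p = 2.62e-06). The classes did not overlap, though without Hashtag7 too few UMIs were left to test. Slamf7, a SLAM family receptor, had a log2 ratio of 2.83 ± 0.41 (edgeR adjusted p = 0.000418), which was 3.49 without Hashtag3. These were 2 of the 3 natural killer receptor genes tested, and 13 of the 16 listed, among them Klrk1, Klrd1 and Klrc1, were too low in both classes.

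Ctla2a (chromosome 13, 60934155 to 60936625, minus strand), which encodes a cathepsin inhibitor, also rose. It stood at 85.6, 502, 689.9, 568 and 264 CPM in Gzmk CD4 cells, against 14.5, 33.4, 13.3, 14.1 and 24.3 CPM in Gzmk-negative CD4 cells, with no overlap. The log2 ratio was 4.26 ± 0.31 (edgeR adjusted p = 1.94e-07). St3gal6, a sialyltransferase that builds selectin ligands, was higher by 2.98 ± 0.33 on the log2 scale (edgeR adjusted p = 3.95e-05), Nr4a2, an orphan nuclear receptor, by 3.16 ± 0.35, and Serpina9, a serpin, by 2.45 ± 0.36, while 5 cells held 50.7% of the Nr4a2 UMIs. Ier3, an early-response gene, was higher by 2.29 ± 0.33 but not past the threshold in clonotypes of 1 cell (edgeR adjusted p = 0.0517).

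**Figure D2:**
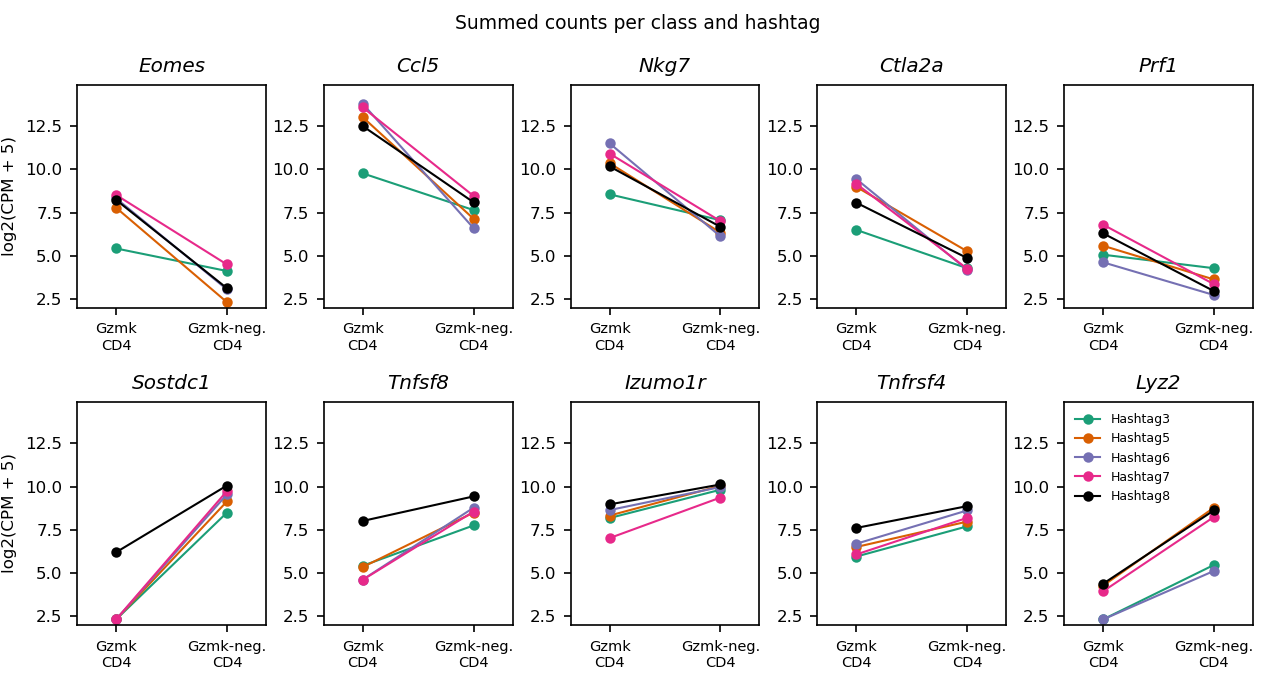
Summed counts of 10 genes as log2(CPM + 5) in Gzmk CD4 cells (left of each panel) and Gzmk-negative CD4 cells (right), 1 line per hashtag with at least 10 cells of each class. For Eomes, Ccl5, Nkg7, Ctla2a and Prf1 all 5 lines lie higher on the left, and for Sostdc1, Tnfsf8, Izumo1r, Tnfrsf4 and Lyz2 all 5 lie lower.

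Among transcription factors, the change was narrow. Of 27 tested, 3 were higher (Eomes, Ikzf3 and Runx3) and 1 lower (Gata3), with a median log2 ratio of -0.06. Runx3, a factor that in CD8 T cells represses Cd4, stood at 95.1, 143, 177, 139 and 121 CPM in Gzmk CD4 cells, against 53.9, 72.4, 48.2, 67.0 and 54.2 CPM in Gzmk-negative CD4 cells, with no overlap (log2 ratio 1.16 ± 0.20, edgeR adjusted p = 0.00216). Its call was lost with thinned cells and in clonotypes of 1 cell. Ikzf3, which encodes Aiolos, was higher by 1.41 ± 0.29, a call lost without Hashtag7 (0.95, edgeR adjusted p = 0.12), and Gata3, the Th2 factor, was lower by -0.92 ± 0.24, a call held in 9 of 20 settings and lost without any 1 of Hashtags 5, 6, 7 and 8.

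Tbx21, which encodes T-bet, the Th1 factor and a relative of Eomes, had a log2 ratio of 1.16 ± 0.37 and did not pass (edgeR adjusted p = 0.0974). Its thinned share was 8.43% in Gzmk CD4 cells (5.36 to 12.5) and 2.66% in Gzmk-negative CD4 cells (1.77 to 3.82). Zbtb7b, which encodes ThPOK, the factor that maintains CD4 identity, had a log2 ratio of -1.53 ± 0.44 (edgeR adjusted p = 0.0577) and a thinned share of 2.68% (1.08 to 5.45) against 9.59% (7.88 to 11.5). Tcf7, the factor of stem-like T cells, and Maf, which acts in helper cells, had log2 ratios of -0.28 ± 0.16 and -0.06 ± 0.18, neither past the threshold.

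Secreted factors moved mostly downwards. Of 12 tested, 2 were higher (Ccl5 and Xcl1) and 7 lower (Csf1, Il21, Il4, Ltb, Spp1, Tnf and Tnfsf8), with a median log2 ratio of -1.04. Xcl1, the chemokine that attracts cross-presenting dendritic cells, stood at 66.5, 537, 98.6, 215 and 348 CPM in Gzmk CD4 cells, against 18.6, 13.0, 44.8, 63.5 and 34.6 CPM in Gzmk-negative CD4 cells (log2 ratio 2.83 ± 0.39, edgeR adjusted p = 0.000293), with 39.6% of its UMIs in 5 cells. The classes did not overlap for Xcl1.

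Il4, the cytokine of type 2 and follicular help, was at 9.51, 0, 0, 0 and 0 CPM in Gzmk CD4 cells, 1 UMI in all, against 31.1, 22.3, 43.2, 54.6 and 51.4 CPM in Gzmk-negative CD4 cells. The fitted log2 ratio was -5.39 ± 0.74 (edgeR adjusted p = 0.000293), and from the pooled counts of 1 and 139 UMIs it was -5.74 (-11.05 to -3.24, counting interval). Without Hashtag3 no Il4 UMI was left in Gzmk CD4 cells. Tnfsf8, the CD30 ligand, stood at 38.0, 35.8, 19.7, 19.5 and 253 CPM, against 211, 356, 435, 372 and 686 CPM (log2 ratio -2.78 ± 0.33, edgeR adjusted p = 7.72e-05), or -3.71 without Hashtag8. Csf1, the macrophage growth factor, stood at 0, 7.17, 0, 0 and 5.28 CPM, against 53.9, 42.7, 73.1, 52.9 and 97.2 CPM (log2 ratio -4.90 ± 0.58, edgeR adjusted p = 6.64e-05), or -5.68 without Hashtag5 and -3.97 without Hashtag7, and its 2 UMIs in Gzmk CD4 cells give a pooled ratio of -5.45 (-8.50 to -3.58, counting interval). Tnfsf8 values overlapped, since Hashtag8 of the Gzmk CD4 cells lay among the Gzmk-negative sums, whereas Csf1 values did not.

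Il21, the cytokine of follicular help, stood at 0, 7.17, 0, 1.30 and 52.8 CPM in Gzmk CD4 cells, against 20.7, 40.8, 61.4, 45.8 and 102 CPM in Gzmk-negative CD4 cells (log2 ratio -2.28 ± 0.50, edgeR adjusted p = 0.013). The call was lost without Hashtag7 (-1.58, edgeR adjusted p = 0.175), and the ratio was -4.23 without Hashtag8. Ltb, Spp1 and Tnf had log2 ratios of -0.75 ± 0.17, -2.28 ± 0.55 and -1.19 ± 0.31, held in 12, 14 and 8 of 20 settings and all lost without Hashtag7, and that of Tnf turned to 0.04 among cells of like depth. At like depth only Hashtags 5, 7 and 8 were left. Ltb was also lost without Hashtag5 or Hashtag6, Spp1 without Hashtag6, and Tnf without Hashtag3 or Hashtag6.

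Ifng, which encodes interferon-γ, the cytokine the study is about, did not pass the threshold. It stood at 0, 50.2, 0, 24.7 and 26.4 CPM in Gzmk CD4 cells, against 47.6, 40.8, 51.5, 17.6 and 40.2 CPM in Gzmk-negative CD4 cells, with full overlap and a log2 ratio of -0.39 ± 0.44 (edgeR adjusted p = 0.799). The thinned share of cells with an Ifng UMI was 3.45% (1.59 to 6.44) and 3.89% (2.81 to 5.25). Of 26 interferon-γ response genes tested, none was higher and 2 were lower, among them Iigp1, an immunity-related GTPase, by -1.63 ± 0.37, and the median log2 ratio was 0.02. Of 21 type I interferon genes, none was higher and 2 were lower, Ifi27l2a and Slfn5, held in 14 and 8 of 20 settings, lost without any 1 of Hashtags 5, 7 and 8 and, for Slfn5, also without Hashtag6, with a median of -0.17.

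Genes of follicular helper cells were lower. Of 15 tested, 8 were lower (Sostdc1, Izumo1r, Il21, Ascl2, Angptl2, Cd200, Icos and Tbc1d4) and 1 higher (Sh2d1a), with a median log2 ratio of -1.28. Sostdc1 (chromosome 12, 36314139 to 36318452, plus strand), a secreted BMP and Wnt antagonist made by a subset of follicular helper cells, was at 0, 0, 0, 0 and 68.6 CPM in Gzmk CD4 cells, against 356, 560.5, 744, 851 and 1063 CPM in Gzmk-negative CD4 cells. The 13 UMIs of Gzmk CD4 cells all came from Hashtag8 and from at most 5 cells. The fitted log2 ratio was -6.07 ± 0.52 (edgeR adjusted p = 1.37e-06), or -4.97 without Hashtag7, and without Hashtag8 all Gzmk CD4 sums were at 0.

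Izumo1r (chromosome 9, 14885814 to 14903949, minus strand), which encodes the folate receptor 4 of helper and regulatory T cells, stood at 285, 315, 394, 125 and 496 CPM in Gzmk CD4 cells, against 897, 1050.5, 999.7, 654 and 1108 CPM in Gzmk-negative CD4 cells. Gzmk CD4 values were all lower, and Hashtag7 was the lowest of both classes. The log2 ratio was -1.66 ± 0.18 (edgeR adjusted p = 2.11e-05). Ascl2, a factor of early follicular helper cells, Tbc1d4, a regulator of glucose uptake, and Angptl2, a secreted factor, were lower by -2.33 ± 0.42, -1.18 ± 0.19 and -2.09 ± 0.39. Cd200, an inhibitory ligand, and Icos, the costimulator, were lower by -1.46 ± 0.31 and -0.86 ± 0.21. Without Hashtag7 the calls of Angptl2, Cd200 and Icos were lost, that of Icos also without any 1 of Hashtags 5, 6 and 8.

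Not every follicular gene was called lower, and a gene short of the threshold may still differ. Cxcr5, the receptor that leads T cells to the follicle, had a log2 ratio of 0.65 (edgeR adjusted p = 0.216), Bcl6, the defining factor, one of -1.28 ± 0.43 (edgeR adjusted p = 0.111) and Pdcd1, which encodes PD-1, one of -0.66 (edgeR adjusted p = 0.122). Sh2d1a, the SLAM adaptor needed for help, was higher by 0.72 ± 0.19, held in 9 of 20 settings and lost without any 1 of Hashtags 5, 6, 7 and 8. Cd40lg, the ligand through which helper cells license B cells, chosen after its values were seen, stood at 57.0, 136, 59.1, 19.5 and 79.2 CPM in Gzmk CD4 cells, against 205, 234, 277, 250.3 and 238 CPM in Gzmk-negative CD4 cells, with no overlap (log2 ratio -2.02 ± 0.32, edgeR adjusted p = 0.000845). Its call was lost only in clonotypes of 1 cell among 20 settings (-1.43, edgeR adjusted p = 0.0756).

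Genes shared with regulatory T cells were also lower, in cells from which Foxp3 had been removed on both sides. Of 9 tested, 6 were lower (Tnfrsf4, Ikzf2, Nrp1, Ctla4, Itgb8 and Tnfrsf18), none was higher, and the median log2 ratio was -1.59. Tnfrsf4, which encodes the costimulator OX40, stood at 57.0, 86.0, 98.6, 62.5 and 190.1 CPM in Gzmk CD4 cells, against 203, 247, 389, 287 and 463 CPM in Gzmk-negative CD4 cells, with no overlap (log2 ratio -1.71 ± 0.20, edgeR adjusted p = 5.28e-05). Ikzf2 (Helios), Nrp1 and Ctla4 were lower by -1.58 ± 0.24, -2.25 ± 0.31 and -1.59 ± 0.27. Itgb8 (-2.07 ± 0.46) and Tnfrsf18 (-0.82 ± 0.20) were lost without Hashtag7, and Tnfrsf18 also without Hashtag6 or Hashtag8. The summed level of Il2ra and Ikzf2, markers of regulatory T cells whose Foxp3 may go unseen, was 38.0 to 201 CPM in Gzmk CD4 cells and 317 to 395 CPM in Gzmk-negative CD4 cells, and its part in these differences was not tested.

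**Figure D3:**
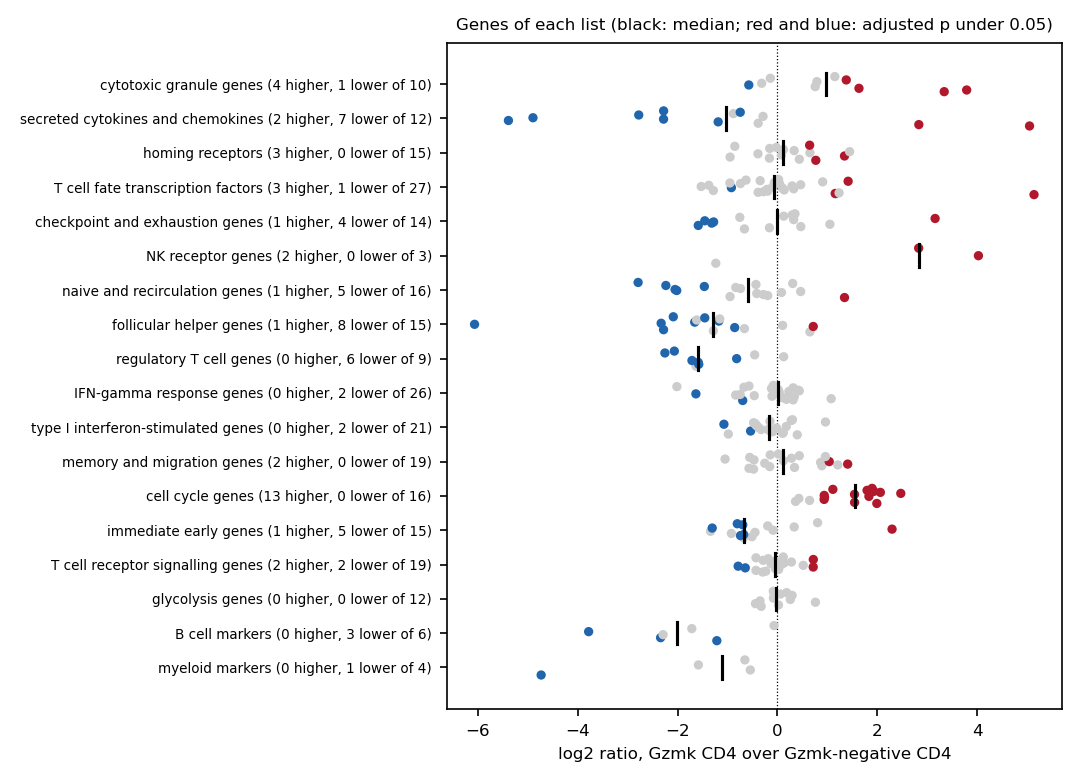
Log2 ratio of each tested gene, Gzmk CD4 over Gzmk-negative CD4, by gene list (1 point per gene, red higher and blue lower at an edgeR adjusted p under 0.05, black bar the list's median). Cell cycle genes lie mostly to the right (13 of 16 higher), and follicular helper and regulatory T cell genes mostly to the left (8 of 15 and 6 of 9 lower).

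Exhaustion and checkpoint genes did not rise as a group. Of 14 tested, 1 was higher (Nr4a2) and 4 were lower (Btla, Cd200, Ctla4 and Nt5e), with a median log2 ratio of -0.02. Tox, the factor of exhausted T cells, had a log2 ratio of 0.32 (edgeR adjusted p = 0.451) and Lag3, an inhibitory receptor, one of -0.16 (edgeR adjusted p = 0.825). Btla and Nt5e were lost without Hashtag5 and without Hashtag7, Btla also without Hashtag6 and Nt5e without Hashtag8.

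Homing receptors changed little. Of 15 tested, 3 were higher, among them Cxcr3 and Selplg, and none lower, with a median log2 ratio of 0.12. Cxcr3, the receptor for interferon-induced chemokines, stood at 247, 423, 473, 319 and 248 CPM in Gzmk CD4 cells, against 157, 197, 144, 263 and 197 CPM in Gzmk-negative CD4 cells, with overlap (log2 ratio 0.77 ± 0.19, edgeR adjusted p = 0.0256). This call was lost without any 1 of Hashtags 5, 6 and 7 (without Hashtag7, edgeR adjusted p = 0.0781). Selplg, the selectin ligand, was higher by 0.64 ± 0.18, a call held in 9 of 20 settings and lost without any 1 of Hashtags 5, 6, 7 and 8. S1pr1, the receptor for leaving the node, was at 0.08 ± 0.24 and Ccr7 at -0.95 ± 0.38, neither past the threshold.

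Naive and recirculation genes were lower in part. Of 16 tested, 5 were lower (Ramp1, Il6st, Il6ra, Satb1 and Igfbp4) and 1 higher, with a median log2 ratio of -0.59. Ramp1, the co-receptor for the neuropeptide CGRP, stood at 0, 57.3, 19.7, 9.12 and 47.5 CPM in Gzmk CD4 cells, against 207, 134, 135, 157 and 191 CPM in Gzmk-negative CD4 cells, with no overlap (log2 ratio -2.79 ± 0.38, edgeR adjusted p = 0.000306). Il6st and Il6ra, which form the receptor of interleukin-6, were lower by -2.24 ± 0.30 and -1.46 ± 0.26, and Il6ra was lost without Hashtag7 (edgeR adjusted p = 0.0740). With thinned cells both calls were lost, with Il6st at -1.31 (edgeR adjusted p = 0.289) and Il6ra at -1.37 (edgeR adjusted p = 0.0626). Satb1, a chromatin organiser, was lower by -2.05 ± 0.43. St3gal6, Ier3, Ascl2, Satb1 and Iigp1 were too low to be tested without Hashtag7. Igfbp4, a growth factor binding protein, was lower by -2.02 ± 0.51, a value of -3.35 without Hashtag3 and a call lost without any 1 of Hashtags 5 to 8.

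Memory, signalling and metabolic genes gave few calls. Of 19 memory and migration genes, 2 were higher, Anxa2 (1.41 ± 0.24) and Crip1 (1.04 ± 0.22), with a median of 0.12, and without cycling cells Anxa2 was at 0.49 (edgeR adjusted p = 0.157), while Crip1 was lost without Hashtag7. Of 19 T cell receptor signalling genes, 2 were higher (Lat and Cd48, both by 0.72) and 2 lower, among them Zap70 (-0.65), with a median of -0.04. Lat, Cd48 and Zap70 were lost without Hashtag7, Cd48 and Zap70 also without Hashtag5, and Zap70 without Hashtag8. Of 15 immediate early genes, 1 was higher (Ier3) and 5 lower (Btg2, Dusp1, Junb, Jund and Nfkbia), with a median of -0.68. The 5 lower calls were all lost without Hashtag7, Junb also without Hashtag6, Nfkbia without Hashtag5 or Hashtag6, Jund without any 1 of Hashtags 5, 6 and 8, and Btg2 without any 1 of the 5. None of 12 glycolysis genes passed, with a median of -0.02.

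Genes of antigen-presenting cells had some of the lowest ratios of summed UMIs. Lyz2 stood at 0, 14.3, 0, 10.4 and 15.8 CPM in Gzmk CD4 cells, against 39.4, 434, 29.9, 298 and 389.8 CPM in Gzmk-negative CD4 cells (log2 ratio -4.73 ± 0.29, edgeR adjusted p = 1.6e-08). The share of cells with a Lyz2 UMI differed far less. After thinning it was 2.30% (0.848 to 4.94) against 3.89% (2.81 to 5.25), with overlapping intervals. Apoe, a lipid carrier of macrophages, was lower by -5.44 ± 0.63, or -3.32 without Hashtag7, and H2-Ab1, an MHC class II chain, by -3.78 ± 0.54, lost without Hashtag7 (-2.70, edgeR adjusted p = 0.0662) and at -4.62 without Hashtag8. Of the listed B cell markers, 3 of 6 tested were lower (H2-Ab1, Cd74 and Ighm, median -2.0), and of the myeloid markers 1 of 4 (Lyz2, median -1.12). Cd74 was lost without any 1 of Hashtags 3, 5, 6 and 7 and Ighm without Hashtag7.

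The part of the 30 Gzmk-negative CD4 cells with 3 or more Lyz2 UMIs, 11 of them with a receptor, in these low ratios was not tested. Among cells with a receptor contig, Lyz2 and H2-Ab1 were too low to be tested, whereas Apoe was still lower by -5.58 (edgeR adjusted p = 0.00214) and Cybb, an oxidase subunit of phagocytes, by -2.64 (edgeR adjusted p = 0.00114). In clonotypes of 1 cell both calls were lost, with Apoe at -2.36 (edgeR adjusted p = 0.268) and Cybb at -2.50 (edgeR adjusted p = 0.0954). Pdzk1ip1 (-3.95 ± 0.73, or -4.94 pooled with a counting interval of -8.00 to -3.07 from 2 UMIs), Atp1b1, a sodium pump subunit (-3.71 ± 0.47), Wls, the Wnt secretion receptor (-3.29 ± 0.45), and Igf1r, the insulin-like growth factor receptor (-2.40 ± 0.39), completed the 12 lowest ratios. Without Hashtag8, Atp1b1 stood at -4.89, Igf1r at -3.09 and Cybb at -3.27, and without Hashtag7 Wls stood at -2.59.

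Proliferation genes were higher. Of 16 cell cycle genes tested, 13 were higher and none lower, with a median log2 ratio of 1.54. Birc5 (survivin) stood at 456, 344, 394, 119.8 and 58.1 CPM in Gzmk CD4 cells, against 72.5, 108, 23.2, 38.8 and 38.3 CPM in Gzmk-negative CD4 cells (log2 ratio 2.06 ± 0.30, edgeR adjusted p = 0.000454), with overlap through Hashtag8. These UMIs came from few cells: 5 cells held 56.6% of those of Birc5 and 56.2% of those of Mki67. Rrm2, Cdk1, Ube2c, Top2a, Mcm6, Mcm3 and Tyms were lost without Hashtag7, and each was also lost without at least 1 of Hashtags 3, 5, 6 and 8. In clonotypes of 1 cell Birc5 was at 1.34 (edgeR adjusted p = 0.49), Mki67 at 1.01 (edgeR adjusted p = 0.733), Stmn1 at 0.80 (edgeR adjusted p = 0.594) and Hmgb2 at 0.80 (edgeR adjusted p = 0.685), all calls lost.

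A cell was called cycling with 2 or more UMIs over Mki67, Top2a and Birc5. Cycling cells numbered 30 of 298 Gzmk CD4 cells (10.1%), holding 25.2% of their UMIs, against 47 of 1380 Gzmk-negative CD4 cells (3.41%), holding 9.96%. By hashtag there were 3 of 14, 4 of 26, 1 of 14, 18 of 189 and 3 of 45, against 7 of 142, 8 of 160, 6 of 178, 3 of 181 and 6 of 293, a higher share in 5 of 5 hashtags. Without cycling cells, 101 genes were higher and 147 lower, and Hmgb2, a chromatin protein of dividing cells, was at 0.53 (edgeR adjusted p = 0.106). Deeper cells have more chance to pass the 2 UMI limit, and the part of depth in this call was not tested. After thinning, a Mki67 UMI was found in 6.90% of Gzmk CD4 cells (4.14 to 10.7). In Gzmk-negative CD4 cells it was 2.18% (1.39 to 3.26). With thinned cells the log2 ratio of Mki67 was 2.04 (edgeR adjusted p = 0.017), while the call of Tubb5 was lost (0.44, edgeR adjusted p = 0.134).

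Shares of several genes were set beside the Gzmk count of the cell, which the rule used, so they are a description with no test. Cells thinned to 1500 UMIs had an Eomes UMI in 1.23% at 0 Gzmk UMIs (0.659 to 2.10), 13.3% at 1 (5.05 to 26.8), 35.6% at 2 to 5 (25.7 to 46.3) and 41.3% at 6 or more (32.6 to 50.4). Nkg7 ran through 8.83% (7.19 to 10.7), 33.3% (20.0 to 49.0), 72.2% (61.8 to 81.1) and 92.1% (85.9 to 96.1), and Ccl5 through 10.2% (8.40 to 12.1), 35.6% (21.9 to 51.2), 62.2% (51.4 to 72.2) and 83.3% (75.7 to 89.4). For these 3 genes cells with 1 Gzmk UMI lay between the negative cells and those with more, and for Eomes the intervals of the upper 2 bins overlapped.

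Izumo1r ran the other way, through 55.7% (52.7 to 58.8), 40.0% (25.7 to 55.7), 31.1% (21.8 to 41.7) and 19.8% (13.3 to 27.9). Tnfrsf4 ran through 26.5% (23.9 to 29.3), 20.0% (9.58 to 34.6), 11.1% (5.46 to 19.5) and 8.73% (4.44 to 15.1). Tox, by contrast, stayed within 22.2% and 32.5% with overlapping intervals. The 4 bins held 1380, 67, 101 and 130 cells, of which 181, 33, 59 and 97 came from Hashtag7, and their median depths before thinning were 3064, 2523, 3361 and 4506 UMIs. The parts of depth and of Hashtag7 in these shares were not tested.

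**Figure D4:**
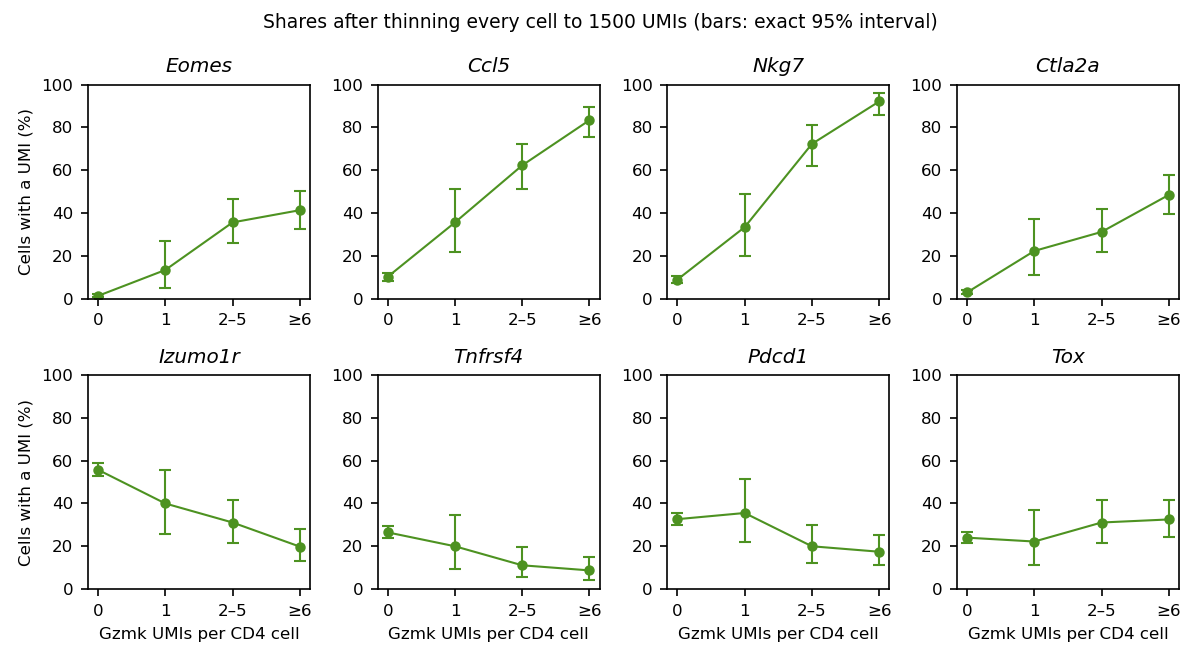
Share of CD4 cells with a UMI of 8 genes, in percent, by the cell's Gzmk UMIs (0, 1, 2 to 5, 6 or more), after thinning each cell to 1500 UMIs, with exact 95% intervals. Shares of Eomes, Ccl5, Nkg7 and Ctla2a are higher at each step, and those of Izumo1r and Tnfrsf4 lower.

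The Gzmk CD4 cells were also described by whether an Eomes UMI was seen before thinning. The 162 Gzmk CD4 cells with an Eomes UMI had a median of 4128 UMIs, and the 136 without had 2837.5. After thinning, Ccl5 was found in 80.4% of those with Eomes (73.2 to 86.4) and 54 of 108 of those without (40.2 to 59.8), Nkg7 in 88.2% (82.0 to 92.9) and 56.5% (46.6 to 66.0), and Izumo1r in 20.3% (14.2 to 27.5) and 37.0% (27.9 to 46.9). Cxcr3 was found in 34.0% (26.5 to 42.1) and 34.3% (25.4 to 44.0). A shallower cell has less chance of an Eomes UMI, and the parts of depth and hashtag in these shares were not tested.

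Gzmk CD8 cells of the same pool shared Gzmk with them by the rule. Within the same 5 hashtags, 3229 genes were tested, 5.98% passed, 83 higher (2.57%) and 110 lower (3.41%) in Gzmk CD4 cells, and 52 of the 110 were ribosomal protein genes. Cd4, Cd8a and Cd8b1 were among the calls by the rule. The counts were 48 higher and 59 lower without Hashtag5, 64 and 69 without Hashtag6, and 54 and 91 without Hashtag7. The median log2 ratio of all genes was 0.01.

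Eomes did not pass the threshold between them. It stood at 38.0, 215, 315, 362 and 296 CPM in Gzmk CD4 cells, against 362, 276, 387, 346 and 289.8 CPM in Gzmk CD8 cells, with Hashtag3 far lower and the other 4 hashtags overlapping (log2 ratio -0.50 ± 0.27, edgeR adjusted p = 0.388). Crtam (-0.55 ± 0.26), Xcl1 (-0.44 ± 0.21), Slamf7 (-0.30 ± 0.30) and Cxcr3 (0.14 ± 0.17) did not pass either, and Tox was at 0.00 ± 0.17. After thinning, an Eomes UMI was found in 34.5% of Gzmk CD4 cells (28.7 to 40.6) and 35.3% of Gzmk CD8 cells (31.8 to 38.8).

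Some granule genes were lower in the CD4 cells. Of 9 granule genes tested, 3 were lower (Ctsw, Nkg7 and Prf1) and none higher, with a median log2 ratio of -0.33. Nkg7 stood at 371, 1304, 2898, 1919.6 and 1146 CPM in Gzmk CD4 cells, against 1654, 2359, 2931, 2733 and 3064 CPM in Gzmk CD8 cells (log2 ratio -1.06 ± 0.21, edgeR adjusted p = 0.00617). Hashtag6 was nearly equal and the other 4 were lower. The call was lost without the hashtag block (edgeR adjusted p = 0.151) and in clonotypes of 1 cell (edgeR adjusted p = 0.109). Ctsw was lower by -1.66 ± 0.23 (edgeR adjusted p = 0.000471) and Prf1 by -1.03 ± 0.24, the last lost without Hashtag5, without Hashtag8, in clonotypes of 1 cell and with 1 cell per clonotype.

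Ccl5 was lower too, at 865, 8233, 14075, 12188 and 5766 CPM against 5480.3, 17567, 18249.5, 22286 and 23753 CPM in Gzmk CD8 cells (log2 ratio -1.50 ± 0.24, edgeR adjusted p = 0.0016). It was lower in each of the 5 hashtags although the ranges overlap, and the call was lost without the hashtag block (edgeR adjusted p = 0.202).

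Natural killer receptors set the classes furthest apart, with 3 of 5 tested lower, none higher and a median log2 ratio of -3.74. Klrc1, the inhibitory NKG2A chain, stood at 0, 7.17, 0, 0 and 5.28 CPM in Gzmk CD4 cells, against 103, 54.2, 117, 60.9 and 117 CPM in Gzmk CD8 cells (log2 ratio -5.42 ± 0.50, edgeR adjusted p = 9.59e-06), or -6.17 without Hashtag5. The 2 Klrc1 UMIs of Gzmk CD4 cells, against 264, give a pooled ratio of -5.67 (-8.73 to -3.81, counting interval). Klrd1, its partner CD94, stood at 0, 28.7, 39.4, 14.3 and 10.6 CPM, against 168, 199, 259, 175 and 236 CPM (log2 ratio -3.74 ± 0.30, edgeR adjusted p = 1.7e-06). Klrk1, the activating NKG2D, stood at 9.51, 7.17, 19.7, 3.91 and 10.6 CPM, against 51.7, 170.4, 161, 79.7 and 130.0 CPM (log2 ratio -4.00 ± 0.32, edgeR adjusted p = 1.58e-06). Klrc1 and Klrk1 were too low to be tested without Hashtag7. None of the 3 genes overlapped, and all lie close together on chromosome 6 (129591782 to 129678973).

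Further genes were lower than in Gzmk CD8 cells. Ly6c2, a surface antigen of memory CD8 T cells, was lower by -3.03 ± 0.28 (edgeR adjusted p = 9.59e-06), Ms4a4c by -1.68 ± 0.30, Smad7, an inhibitor of TGF-β signalling, by -1.48 ± 0.27 and Il7r, the interleukin-7 receptor, by -1.25 ± 0.16. Cd7, an immunoglobulin family receptor, was lower by -2.12 ± 0.40 but not past the threshold without Hashtag7 (edgeR adjusted p = 0.0711). Runx3 was lower by -0.71 ± 0.18, a call held in 5 of 14 settings and lost without any 1 of Hashtags 5 to 8. Of 13 homing receptors 2 were lower (Cxcr6 and Selplg), of 6 secreted factors 2 were lower (Ccl5 and Ltb), and of 19 transcription factors 2 were higher (Maf and Tox2) and 1 lower (Runx3).

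Genes of CD4 help remained above the CD8 level. Of 7 follicular helper genes tested, 4 were higher (Izumo1r, Tox2, Icos and Tbc1d4) and none lower, with a median log2 ratio of 0.97, and of 5 regulatory T cell genes 2 were higher (Tnfrsf4 and Capg), with a median of 1.04. Tnfrsf4 stood at 57.0, 86.0, 98.6, 62.5 and 190.1 CPM in Gzmk CD4 cells, against 12.9, 10.3, 14.6, 15.1 and 14.3 CPM in Gzmk CD8 cells (log2 ratio 2.64 ± 0.30, edgeR adjusted p = 7.75e-05), and without Hashtag7 it was too low to be tested. Izumo1r stood at 285, 315, 394, 125 and 496 CPM, against 181, 69.7, 62.1, 28.9 and 28.6 CPM (log2 ratio 2.36 ± 0.33, edgeR adjusted p = 0.000617). Both genes therefore lay between Gzmk CD8 and Gzmk-negative CD4 cells.

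Maf stood at 171, 251, 177, 173 and 375 CPM in Gzmk CD4 cells, against 51.7, 41.3, 69.4, 92.9 and 78.2 CPM in Gzmk CD8 cells, with no overlap (log2 ratio 1.56 ± 0.24, edgeR adjusted p = 0.00142). Tox2, a relative of Tox, was higher by 1.89 ± 0.31 (2.55 without Hashtag7), Icos by 0.97 ± 0.19, Cd5, a brake on receptor signalling, by 1.19 ± 0.22 and Cd247, the receptor ζ chain, by 1.02 ± 0.17. Tbc1d4 (1.11 ± 0.27) was lost without any 1 of Hashtags 5, 6 and 8. A Cd40lg UMI was found, after thinning, in 5.75% of Gzmk CD4 cells (3.25 to 9.30), 25.7% of Gzmk-negative CD4 cells (23.1 to 28.5) and 0.407% of Gzmk CD8 cells (0.0840 to 1.18).

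Cell cycle genes were higher against this class as well, 7 of 12 tested, with a median log2 ratio of 1.63. Ube2c, Birc5 and Mki67 were higher by 2.90 ± 0.44, 2.54 ± 0.30 and 2.33 ± 0.28, and Ube2c was at 2.29 without Hashtag6. Cycling cells made up 22 of 941 Gzmk CD8 cells (2.34%), against 10.1% of Gzmk CD4 cells. Vim, the filament vimentin, and Lgals1, which encodes galectin-1, were higher by 1.24 and 0.78, but stood at -0.21 and -0.25 without cycling cells.

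Receptor sequences gave a view of the cells that the rule had not used. Of 5957 clonotypes among kept cells, 191 held a Gzmk CD4 cell. Of these, 130 had 1 kept cell and 61 had more, and 56 of the 61 lay within 1 hashtag. The 25 clonotypes with 2 or more Gzmk CD4 cells held 108 of the 274 with a receptor, and the 5 with most held 58. Gzmk CD4 cells are therefore not independent of each other, above all in Hashtag7.

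Clonal expansion was a clonotype of 2 or more cells in the receptor library, whether or not those cells were kept. Its share was higher among Gzmk CD4 cells in each of 5 hashtags, without reaching a p of 0.05 in the exact permutation test. In Hashtags 3, 5, 6, 7 and 8, 21.4%, 20.0%, 41.7%, 65.7% and 44.4% of Gzmk CD4 cells with a receptor were expanded, against 19.7%, 14.8%, 26.0%, 23.1% and 34.8% of Gzmk-negative CD4 cells. The mean difference was 15.0 percentage points, with a range of 1.77 to 42.6, and an exact two-sided sign-flip permutation test over the 5 hashtags gave p = 0.0625, the smallest this design allows, and 0.25 after Benjamini-Hochberg adjustment over 4 receptor measures. Without Hashtag7 the mean difference was 8.07 points. With expansion set at 3 or more cells the share was higher in 4 of 5 hashtags (mean 10.1 points, range -9.40 to 40.8, exact permutation p = 0.3125). With at least 2 Gzmk UMIs it was higher in 3 of 4 (mean 10.2, range -10.6 to 46.6, exact permutation p = 0.625). The share of cells with a receptor, the share with 2 TRA chains and the length of the TRB CDR3 gave exact permutation p-values of 0.25, 0.9375 and 0.625. Gzmk CD8 cells were not in these tests. In the same order of hashtags, 18.2%, 38.6%, 42.6%, 57.8% and 58.0% of those with a receptor were in clonotypes of 2 or more cells. These shares were above those of Gzmk CD4 cells in Hashtags 5, 6 and 8 and below them in Hashtags 3 and 7.

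The 5 clonotypes with both chains and the most Gzmk CD4 cells were chosen by that number, so their Gzmk content is a description. Clonotype 1 had 49 kept cells, all of Hashtag7, of which 48 carried Gzmk, 28 Cd4, 1 a Cd8 chain and 27 were Gzmk CD4 cells. Clonotype 4 had 21 cells (12 Gzmk CD4), clonotype 6 had 17 (7), clonotype 12 had 11 (7) and clonotype 13 had 11 (5), all of Hashtag7. No Gzmk-negative CD4 cell was seen in 4 of them, and clonotype 13 had 1. Of the 18 clonotypes with 5 or more kept cells that held a Gzmk CD4 cell, 17 lay mostly in Hashtag7.

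**Figure D5:**
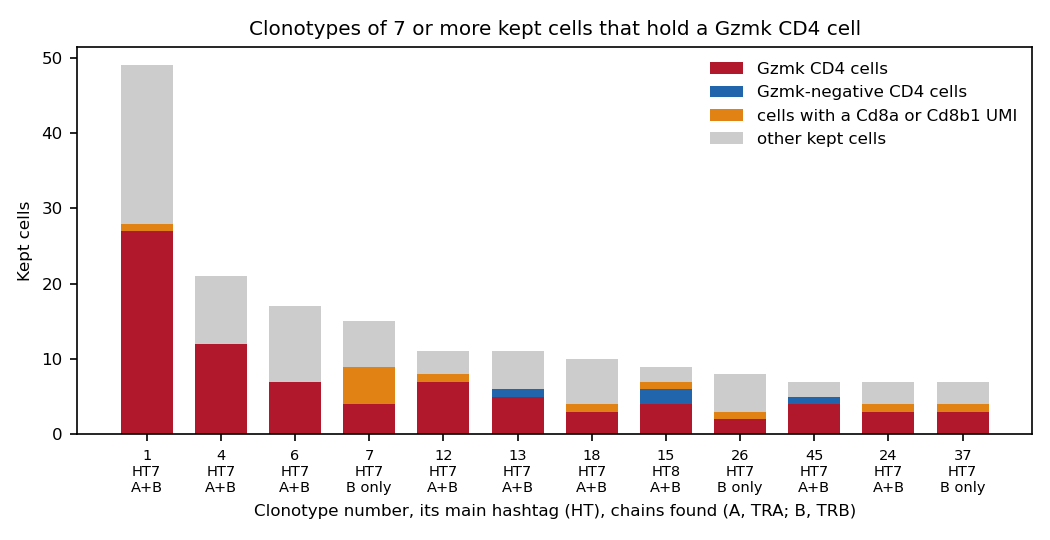
Kept cells in each clonotype of 7 or more kept cells that holds a Gzmk CD4 cell, stacked as Gzmk CD4 cells (red), Gzmk-negative CD4 cells (blue), cells with a Cd8a or Cd8b1 UMI (orange) and other kept cells (grey), with the clonotype number, its main hashtag and the chains found below. Clonotype 1 is the largest with 49 cells, and most bars belong to Hashtag7.

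The CDR3, the stretch of each receptor chain that meets the antigen and differs between clones, is shown for these 5 clonotypes because it tells whether they share a receptor, as read in the deposited contigs (coding strand). Capitals mark the longest run at the 3′ end that chains with the same J segment have in common.
Clonotype 1 TRB (TRBV23, TRBJ2-3): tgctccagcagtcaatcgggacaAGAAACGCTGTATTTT
Clonotype 12 TRB (TRBV31, TRBJ2-3): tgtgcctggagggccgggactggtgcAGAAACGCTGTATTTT
Clonotype 6 TRB (TRBV13-2, TRBJ2-3): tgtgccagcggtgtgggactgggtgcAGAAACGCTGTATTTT
Clonotype 4 TRB (TRBV3, TRBJ2-5): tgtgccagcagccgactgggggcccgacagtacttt
Clonotype 13 TRB (TRBV2, TRBJ1-4): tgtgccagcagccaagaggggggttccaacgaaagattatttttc
Clonotype 1 TRA (TRAV7D-2, TRAJ37): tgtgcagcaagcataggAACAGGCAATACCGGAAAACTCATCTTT
Clonotype 13 TRA (TRAV3-3, TRAJ37): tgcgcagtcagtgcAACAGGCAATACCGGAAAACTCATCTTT
Clonotype 4 TRA (TRAV12D-1, TRAJ40): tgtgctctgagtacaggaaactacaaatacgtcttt
Clonotype 12 TRA (TRAV5-1, TRAJ6): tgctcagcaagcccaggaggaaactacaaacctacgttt
Clonotype 6 TRA (TRAV9-4, TRAJ42): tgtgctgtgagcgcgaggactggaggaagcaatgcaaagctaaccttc

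The 5 clonotypes used 5 different TRBV segments (chromosome 6) and 5 different TRAV segments (chromosome 14). Clonotypes 1, 12 and 6 shared TRBJ2-3 and its last 16 bases, and clonotypes 1 and 13 shared TRAJ37 and 28 bases. Clonotypes 6 and 12 shared 5 further bases before that run, 21 in all. Over all 184 Gzmk CD4 clonotypes with a TRB chain, 22 TRBV segments were used. The 1039 Gzmk-negative CD4 clonotypes used 22 and the 536 Gzmk CD8 clonotypes 21, so this number hardly differs between classes. Of TRAV segments, 60 were used in 158 Gzmk CD4, 82 in 928 Gzmk-negative CD4 and 80 in 447 Gzmk CD8 clonotypes. The classes were not compared at equal numbers of clonotypes.

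Clone-mates gave a check on cells in which Cd4 mRNA was missed. Cells without a Cd4 UMI that shared both chains with a Gzmk CD4 cell carried Gzmk in 91 of 103 (88.3%, 80.5 to 93.8), and a Cd8 chain in 8 of 103 (7.77%, 3.41 to 14.7). Clone-mates of Gzmk-negative CD4 cells carried Gzmk in 17 of 131 (13.0%, 7.74 to 20.0) and a Cd8 chain in 8 of 131 (6.11%, 2.67 to 11.7). In Hashtag7 alone the Gzmk shares were 78 of 86 (90.7%, 82.5 to 95.9) and 10 of 20 (27.2 to 72.8).

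Other genes of these mates had not entered the rule. Ccl5 was at 17482 CPM in mates of Gzmk CD4 cells and 1620.5 CPM in mates of Gzmk-negative CD4 cells, Eomes at 277 and 31.8 CPM, Cd40lg at 40.5 and 251 CPM and Izumo1r at 106 and 1159.8 CPM. The mates had median depths of 3262 and 1740 UMIs and come from 37 and 82 clonotypes, so these sums describe the cells and carry no test. Hashtag7 held 86 of the 103 mates of Gzmk CD4 cells and 20 of the 131 mates of Gzmk-negative CD4 cells. Within Hashtag7 the levels were closer, with Ccl5 at 19072 and 4679 CPM, Eomes at 296 and 83.2 CPM, Cd40lg at 35.6 and 125 CPM and Izumo1r at 74.9 and 146 CPM, the last from 21 and 7 UMIs and in 15.1% and 15% of the cells.

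A few clonotypes crossed the classes. Of the clonotypes with 2 or more kept cells that held a Gzmk CD4 cell, 12 also held a Gzmk-negative CD4 cell. Of all 191 clonotypes with such a cell, 17 held a cell with a Cd8 chain. Clonotype 7, in which only the TRB chain was read, shared that chain with clonotype 4 and had 15 cells, of which 4 were Gzmk CD4 cells and 5 carried a Cd8 chain.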

How the data were processed

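The deposited gene matrix holds raw UMI counts for each barcode. It was made with Cell Ranger 3.1.0, and the genome names given are mm10 and GRCm38, per the submitters' processing notes. The deposited receptor table gives UMI counts of each contig, and clonotypes were taken as deposited. The chemistry reads the 5′ end, per the labels' protocols. Hashtag counts stand in the same matrix. Of 13016 barcodes 12804 passed the gene and mitochondrial limits and 10192 the hashtag limits. Of 9473 receptor barcodes 8792 were in the gene matrix, and 7 and 0 lymph node barcodes recur in the heart libraries of 2 and 18 months, whose cells were not used here.

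UMIs were summed per class and hashtag and tested with edgeR 4.0.16 (quasi-likelihood, TMM, filterByExpr, hashtag as block, Benjamini-Hochberg over all genes tested, threshold 0.05) in R 4.3.3, with DESeq2 1.42.0 as an alternative. The block is the hashtag label of the cells, so it pairs sums of 1 sample. CPM are raw UMIs scaled to the total of a class in a hashtag. Other steps ran in Python 3.11.15 with Scanpy 1.11.5, pandas 2.3.3, SciPy 1.17.1, NumPy 2.4.6 and Matplotlib 3.10.9. Gene positions are GRCm38, GENCODE M21. On simulated counts the test called 48 of 50 genes raised 4-fold and 6 of 50 raised 2-fold against Gzmk-negative CD4 cells, and 50 and 18 of 50 against Gzmk CD8 cells. Lowered genes were called less often. Of 50 lowered 4-fold and 50 lowered 2-fold, 30 and 5 were called against Gzmk-negative CD4 cells, and 29 and 10 against Gzmk CD8 cells. Some lowered genes had too few counts to be tested. Small differences, and 4-fold decreases, can therefore be missed.

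Named genes are the 12 highest and 12 lowest ratios past the threshold with 1 direction in every hashtag and at least 50 CPM in the higher class, without rule genes, receptor variable, ribosomal, mitochondrial, Xist, Y-linked, Gm and Rik genes. Members of the gene lists are named besides these. The cells, the lists and the tests were chosen with earlier results of these data known. Scrublet, run on 12804 barcodes, marked no cell as a doublet and so did not work here. Instead, 16 Gzmk CD4 and 67 Gzmk-negative CD4 cells with a doublet score in the top 5% or with 2 or more TRB chains were left out in an alternative. Results for a few genes are not reported here.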

Additional observations from a re-analysis of the deposited data

Results flagged for a closer look

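A total of 6 values stood apart from their group by a test for a single outlying sample, of 53 sets of 5 or 8 hashtags examined, and chance alone gives about 1 in 20 such sets. The share of Gzmk CD4 cells among Foxp3-negative CD4 cells was 51.1% in Hashtag7, against 1.16% to 13.98% in the other 7 hashtags. The remaining 5 are differences in log2(CPM + 5) within 1 hashtag. Against Gzmk-negative CD4 cells, Serpina9 was higher by 1.13 in Hashtag5, less than in the other 4 hashtags. Against Gzmk CD8 cells, Pclaf, a replication factor, was higher by 7.49 in Hashtag3, where no Pclaf UMI was found in Gzmk CD8 cells. Against the same cells Tox2 was higher by 0.94 in Hashtag7, less than in the others, Ctsw lower in Hashtag3 (-3.53) and Ier3 lower in Hashtag6 (-2.92), both further than in the others.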

How the results depend on the processing

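Processing moved the number of genes called more than the direction of any one. Against Gzmk-negative CD4 cells (142 higher and 136 lower), the counts were 223 and 332 with no filter on low counts, 81 and 83 among cells of 2322 to 4891 UMIs, 41 and 64 with cells thinned to 1500 UMIs, 84 and 84 with 1 cell per clonotype and hashtag, and 9 and 16 in clonotypes of 1 cell, and DESeq2's Wald test called 80 lower. Against Gzmk CD8 cells (83 and 110), they were 218 and 193 with no filter, 25 and 72 thinned, 4 and 11 in clonotypes of 1 cell, and 49 higher with 1 cell per clonotype. Thinning and the limits on depth and clonotypes leave fewer cells or UMIs. The limit on depth left only Hashtags 5, 7 and 8, and clonotypes of 1 cell left only Hashtags 3, 5, 7 and 8. Leaving out 1 hashtag gave 28 to 146 higher and 32 to 146 lower in the first comparison, the fewest without Hashtag7, where 28 of the 28 and 28 of the 32 were among the main calls, and 48 to 119 higher and 59 to 133 lower in the second, the fewest without Hashtag5. Without the hashtag block the counts were 142 and 124 in the first comparison, of which 109 and 103 were also called with it, and 69 and 98 in the second, of which 66 and 93 were also called with it. Of the named results, 30 lost their call without the block. The alternatives without likely doublets, with 1 cell per clonotype, with a receptor contig and without cycling cells were chosen after seeing the data.

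Over 137 named results and 20 settings, 1792 of 2263 values kept direction and side of the threshold, 468 fell short of it, and 3 turned: Tnf to 0.0350 among cells of like depth against Gzmk-negative CD4 cells, and, against Gzmk CD8 cells, Vim to -0.21 and Lgals1 to -0.25 without cycling cells. The cause of these turns was not tested. A gene with too few UMIs in a setting has no value there. Against Gzmk-negative CD4 cells, Eomes, Ccl5, Nkg7 and Sostdc1 kept their calls in 20 of 20 settings.

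The share of Gzmk CD4 cells, with at least 2 Gzmk UMIs required, was 0.490% in Hashtag1, 0% in Hashtag2, 0.685% in Hashtag4, 42.2% in Hashtag7 and 9.47% in Hashtag8. Hashtag2 was also at 0% with the submitters' filter and thinned, and Hashtag8 at 7.46% thinned. The share with a receptor turned to -0.00652 points at like depth, where only Hashtags 5, 7 and 8 were left. The share with 2 TRA chains turned to -0.579 points at a hashtag ratio of 10 and ranged over -1.21 to 3.81 points with 1 hashtag left out. CDR3 length turned to 0.695 bases with 2 Gzmk UMIs and 0.784 at like depth, and ranged over -0.825 to 0.0908 with 1 left out. The difference in expansion ranged over 8.07 to 18.3 points and that in receptor share over 5.49 to 11.5 points with 1 left out. Over 5 hashtags the exact permutation test of these measures cannot go below 0.0625. The doublet alternative as planned could not be run. Depth limits the rarer granzymes and Ifng, seen in few cells of any class.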
